A study of Schmidtea mediterranea with 24 samples.

Results

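Transcripts that fell by 2 days after amputation and came back by 4 days were a small set in regenerating planarian tail fragments: 10 of the 28069 transcript contigs in the count table met the definition. A contig is an assembled transcript, known here only by its ID. The definition used the 12 control libraries alone, on CPM, which is a contig's count divided by the total count of its library and multiplied by 1000000. A member had a mean of at least 5 CPM at 0 h, a mean at 2 days at least 3-fold lower, a mean at 4 days at least 2 times that at 2 days, and a 4 day mean above 25% and at most 150% of the 0 h mean. The control changes over time therefore chose the members and are given as values without a test. The fall and recovery in the 12 egr-2 RNAi libraries were not used for the choice and could be tested.

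Total RNA came from the third of the tail fragment at its anterior end in asexual Schmidtea mediterranea, clonal line CIW4, and each of the 24 libraries pooled 10 fragments. Animals of the egr-2 RNAi groups had eaten double-stranded RNA of egr-2, and those of the control RNAi groups double-stranded RNA of egfp, a jellyfish reporter gene that planarians lack. All animals had 6 feedings of 2 µg double-stranded RNA in liver paste and were starved for 7 days before amputation, and 4 replicates were taken per RNAi condition at 0 h, at 2 days and at 4 days. RNAi by feeding lowers a transcript in the whole animal and does not delete the gene, and every animal belongs to 1 clone. The tables used here do not pair contig IDs with gene names, so neither the level of egr-2 itself nor cell type markers of the tissue were checked, and the members are described by ID, length and level.

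Planarians rebuild missing parts from neoblasts, the dividing stem cells of the body, and a tail fragment grows a new head at its anterior wound. Transcripts respond to the wound within hours, a blastema of new tissue forms over the following days, and the old tissue is reshaped to the new proportions. The Egr genes encode zinc finger transcription factors of the early growth response family, of which some members are switched on by wounds in planarians. In tissue RNA, fewer cells of a type and less RNA per cell cannot be told apart, so a fall at 2 days can be either.

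Each condition of the definition except the upper limit removed most of what the one before it had kept. In control RNAi fragments 11601 contigs reached 5 CPM at 0 h, 246 of these fell to the 2 day limit, 47 of those at least doubled by 4 days, and 10 also passed 25% of their 0 h level. None of the 10 was removed by the upper limit of 150%. Over the 11601 contigs the median level at 2 days was 118% of that at 0 h and at 4 days 119%, so the members moved against the bulk of abundant transcripts on this scale. No other contig in the table shared a component number with any member. Whether reads were divided with contigs outside the table was not tested.

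**Figure D1:**
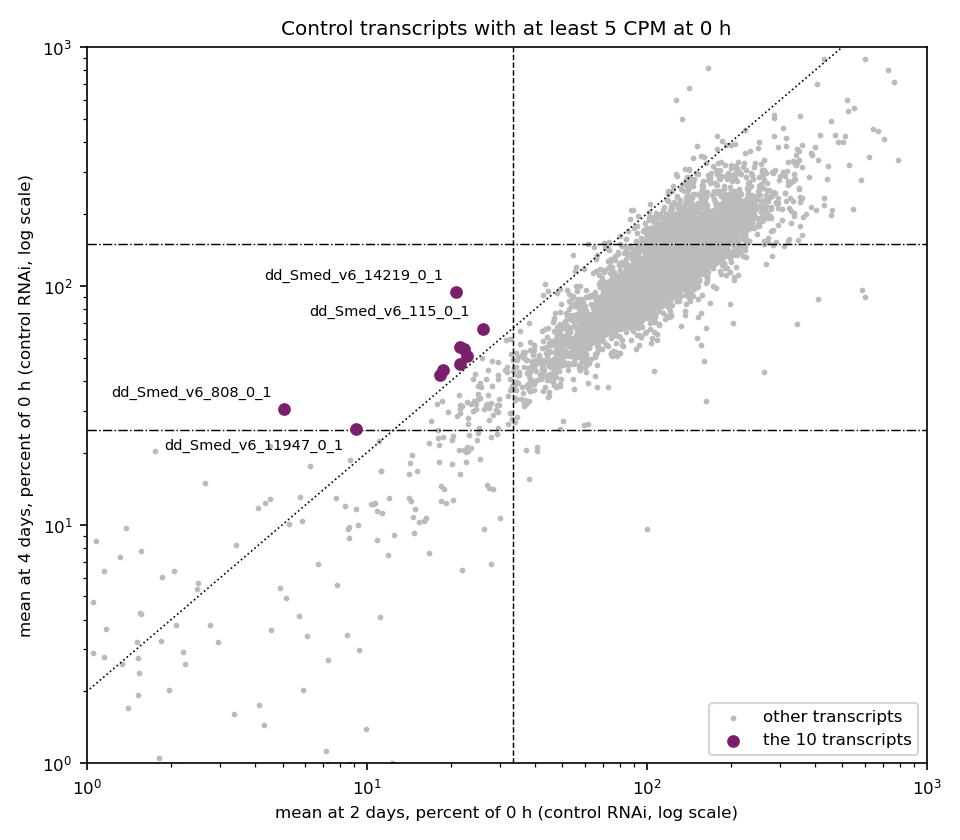
Mean level at 2 days (horizontal) and at 4 days (vertical) as a percent of 0 h in control RNAi fragments, on log axes, for contigs with at least 5 CPM at 0 h. The dashed line marks 33.3%, the dash-dotted lines 25% and 150%, and the dotted line a level at 4 days of 2 times that at 2 days. The 10 members lie in the enclosed corner, and 49 contigs beyond the axes (below 1% or above 1000%) are not drawn.

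Nearest the limits, dd_Smed_v6_115_0_1 stood at 26% of its 0 h level at 2 days in control RNAi fragments, and the nearest contig that failed this limit alone, dd_Smed_v6_10318_0_1, at 42.5%. No contig that met the other conditions lay between them. The other limits were tighter. At 4 days dd_Smed_v6_11947_0_1 had 25.1% of its 0 h level and dd_Smed_v6_13702_0_1, outside, 22.4%. From 2 to 4 days dd_Smed_v6_8392_0_1 rose 2.17-fold and dd_Smed_v6_9650_0_1, outside, 1.93-fold. Mean CPM at 0 h was 5.22 for dd_Smed_v6_14219_0_1 and 4.76 for dd_Smed_v6_34919_0_1, outside.

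The members spanned a wide range of abundance and length. Contigs ran from 248 to 2564 bases with a median of 1060.5, against a median of 1582 over the 11601 contigs of at least 5 CPM. Per kilobase of contig, the control level at 0 h was highest for dd_Smed_v6_132_0_1 (856 CPM per kb, 433 bases) and dd_Smed_v6_115_0_1 (609 CPM per kb, 614 bases). It was lowest for dd_Smed_v6_13789_0_1 (3.16 CPM per kb, 2564 bases). The other 7 lay between 5.26 and 84.6 CPM per kb. Summed over the 10 members, egr-2 RNAi fragments had sums of 1396 ± 79.2, 269.7 ± 37.7 and 595 ± 39.2 CPM at 0 h, 2 days and 4 days (SD, n = 4 each). In control RNAi fragments the sums were 998 ± 89.8, 223 ± 24.3 and 569 ± 23.2 CPM (SD, n = 4 each). Without dd_Smed_v6_115_0_1 and dd_Smed_v6_132_0_1, which carry most of these sums, they were 219 ± 14.4, 43.4 ± 3.60 and 114 ± 6.47 CPM in egr-2 RNAi fragments and 254 ± 24.2, 46.5 ± 4.29 and 117 ± 6.90 CPM in control RNAi fragments (SD, n = 4 each).

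Library totals ran from 13449251 to 30829850 counts, and all 10 members passed the filter on low counts. Every pair of replicates differed by more than counting noise. The labels call the replicates biological, without saying whether they came from separate cultures, so p-values measure the spread between pools of fragments. One library stood apart: replicate 1 of egr-2 RNAi at 0 h deviated from its group mean with an SD of 0.574 on the log2 scale over contigs, against 0.232 to 0.379 in the other 23 libraries. Member values printed here that it moved in call, in direction or by over 1.5-fold are given with and without it.

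**Figure D2:**
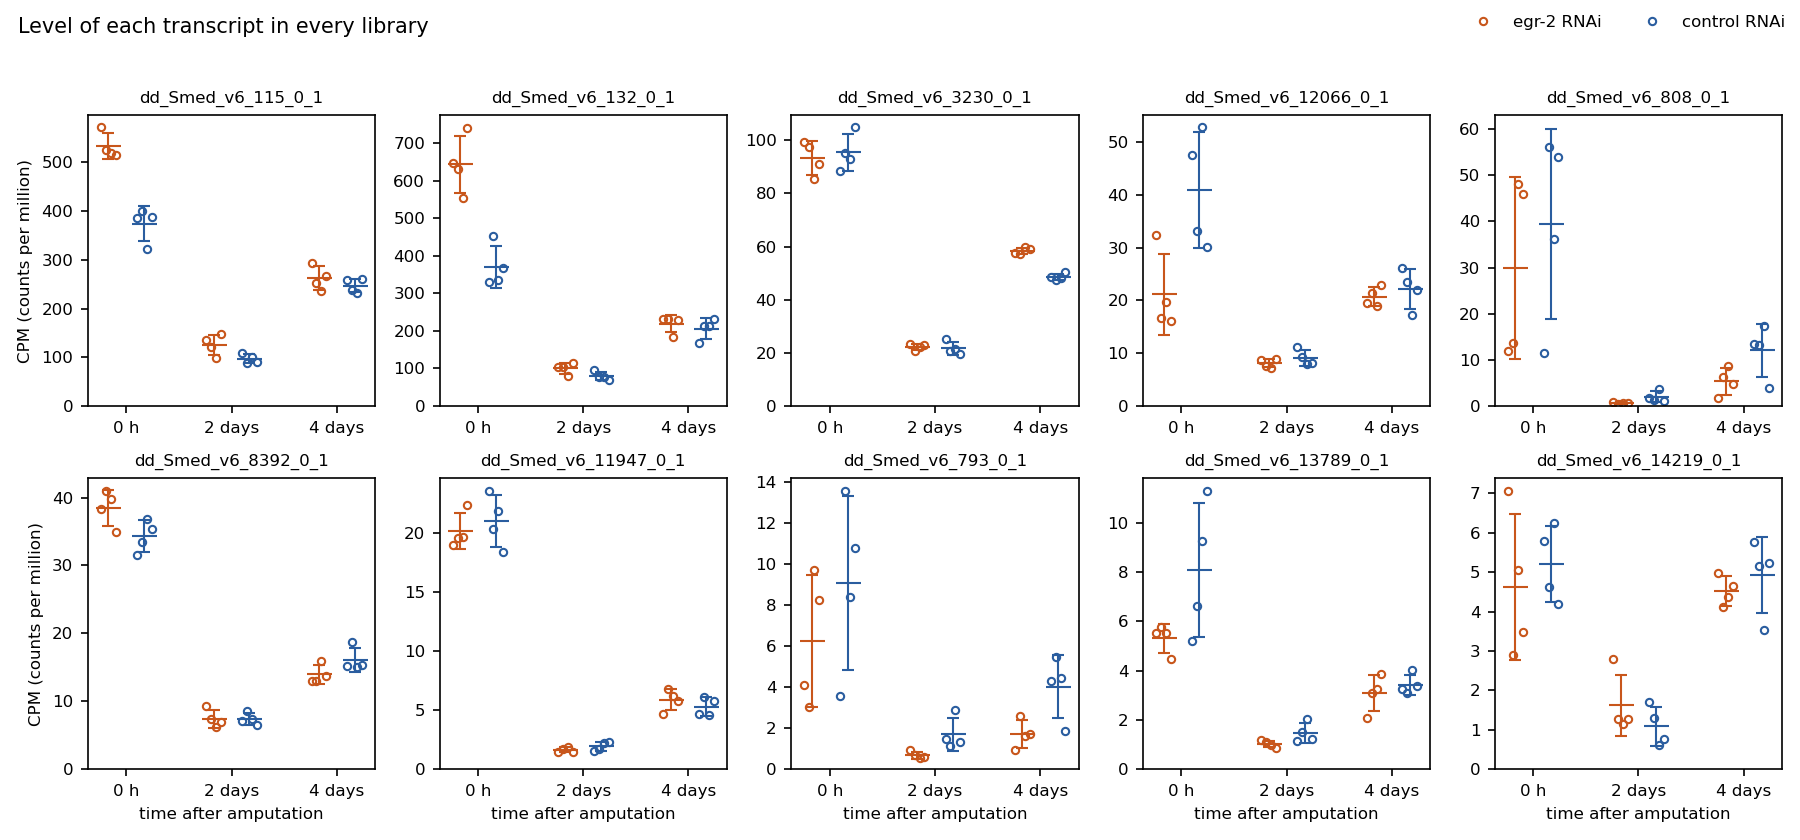
CPM of each member (vertical axis, from 0) in every library by time after amputation, with egr-2 RNAi left of control RNAi. Circles are libraries, bars are the mean ± SD of 4. All members fall from 0 h to 2 days and are higher again at 4 days in both RNAi conditions.

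The first question was whether the fall and the recovery appear in the libraries that were not used to choose the members. In egr-2 RNAi fragments all 10 members were lower at 2 days than at 0 h by edgeR's quasi-likelihood test with Benjamini-Hochberg adjustment over 19761 contigs, where 24.6% of all contigs were called lower. Their log2 changes ran from -5.90 to -1.67 with a median of -2.67, against a median of 0.02 over all contigs tested. The largest adjusted p was 4.0e-06, that of dd_Smed_v6_14219_0_1. From 2 to 4 days 9 of the 10 were called higher in egr-2 RNAi fragments, against 12.3% of all contigs, with a median log2 change of 1.32 over the 10 and 0.00 over all contigs (0.0045 before rounding). The member not called was dd_Smed_v6_793_0_1, with a log2 change of 1.29 (SE 0.56) and an adjusted p of 0.090 (0.037 in DESeq2, and 0.0033 to 0.23 over all alternatives). At 4 days 8 of the 10 were still called lower than at 0 h in egr-2 RNAi fragments, against 24.9% of all contigs. The exceptions were dd_Smed_v6_12066_0_1 (log2 change of -0.37, SE 0.18, adjusted p = 0.093) and dd_Smed_v6_14219_0_1 (-0.36, SE 0.24, adjusted p = 0.22). On CPM without TMM factors they stood at 97.5% and 97.8% of their 0 h means, and at 118% and 119% without egr-2 RNAi 0 h replicate 1. The log2 changes include TMM factors, which place 4 days lower against 0 h than CPM does. The call of dd_Smed_v6_12066_0_1 was made without egr-2 RNAi 0 h replicate 2 (adjusted p = 0.040) or 4 (0.032), while without replicate 1 its log2 change was -0.09 (adjusted p = 0.67). Without that same library dd_Smed_v6_14219_0_1 also had a log2 change of -0.09 (adjusted p = 0.77), and the counts stayed at 10 lower at 2 days and 8 lower at 4 days. Scaling by total counts alone, in place of TMM factors, shifts the median of all contigs upward by 0.29 for the fall and by 0.34 for 4 days against 0 h, and no member changed direction or lost its call under it.

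The size of the fall and of the recovery varied among the members. The deepest fall was that of dd_Smed_v6_808_0_1, a contig of 475 bases, to 2.11% of its 0 h mean at 2 days in egr-2 RNAi fragments and 5.07% in control RNAi fragments. Next came dd_Smed_v6_11947_0_1, of 1561 bases, at 8.12% in egr-2 RNAi and 9.16% in control RNAi fragments. The other 8 stood at 10.8% to 38.3% in egr-2 RNAi and at 18.2% to 26% in control RNAi fragments. The share of the lost level that had come back by 4 days, the difference of the 4 day and 2 day means over that of the 0 h and 2 day means, ran from 16.2% to 96.6% in egr-2 RNAi and from 17.6% to 92.8% in control RNAi fragments. The largest shares in egr-2 RNAi fragments, 95.9% for dd_Smed_v6_12066_0_1 and 96.6% for dd_Smed_v6_14219_0_1, rest on 0 h replicate 1 and were 134.4% and 132.3% without it. In control RNAi fragments these contigs had 41.1% and 92.8%. All shares are on CPM without TMM factors, which lifts 4 days against 0 h. With TMM factors and without 0 h replicate 1, neither contig was above its 0 h level at 4 days in egr-2 RNAi fragments (log2 change of -0.09 for each). The share was smaller in egr-2 RNAi than in control RNAi fragments for 5 members and larger for the other 5, with or without that library.

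**Figure D3:**
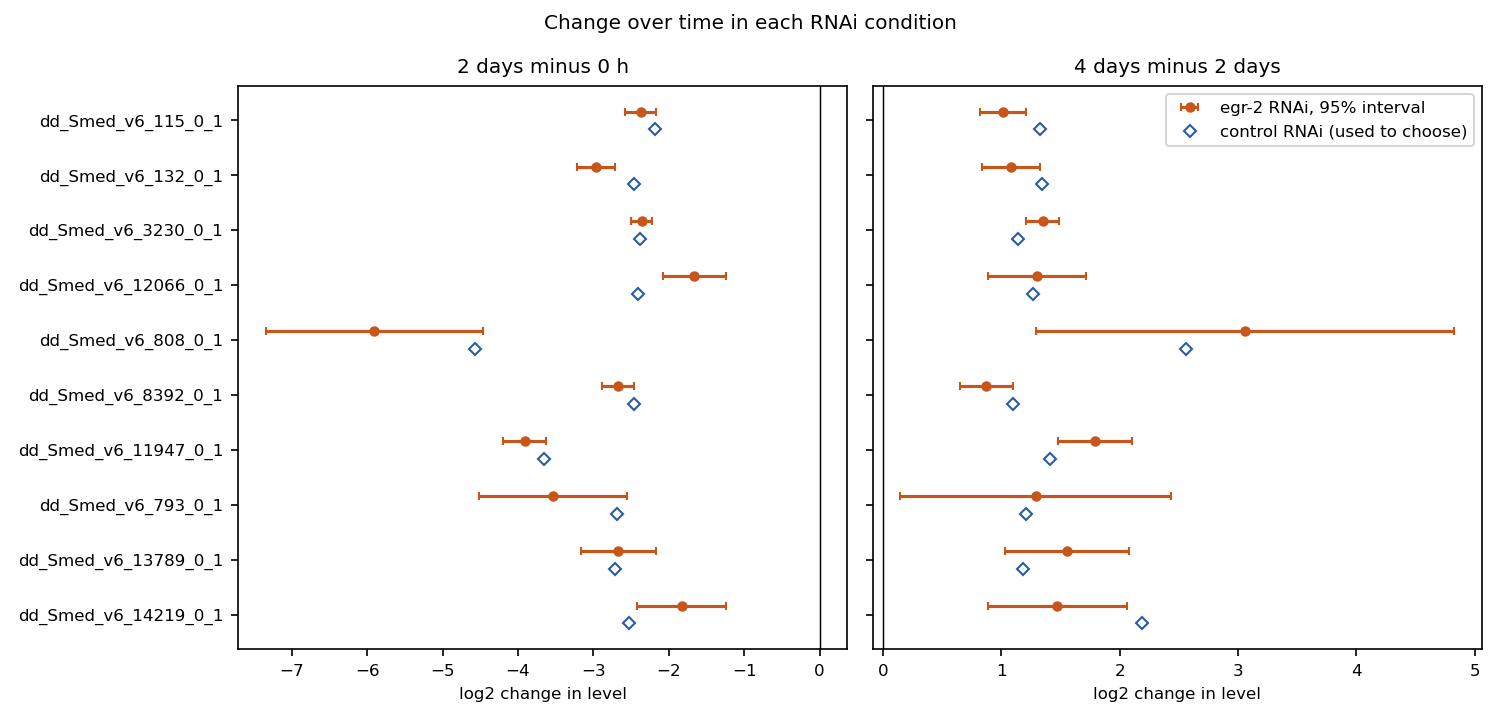
Log2 change from 0 h to 2 days (left) and from 2 to 4 days (right) for each member. Filled circles with bars are egr-2 RNAi with its 95% interval, and open diamonds below them are control RNAi, which chose the members. Every egr-2 RNAi interval lies below 0 for the fall and above 0 for the recovery.

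The 2 most abundant members, dd_Smed_v6_115_0_1 and dd_Smed_v6_132_0_1, started from a higher level in egr-2 RNAi fragments. At 0 h dd_Smed_v6_115_0_1 had 572, 525, 519 and 516 CPM in the 4 egr-2 RNAi libraries, against 387, 401, 322 and 387 CPM in the 4 control RNAi libraries. The groups did not overlap. The log2 difference was 0.58 (SE 0.093, adjusted p = 3.6e-04), and 0.53 without egr-2 RNAi replicate 1 (adjusted p = 9.1e-04). Its 2 day levels were 135, 122, 98.7 and 148 CPM in egr-2 RNAi libraries and 109, 88.0, 100.4 and 90.7 CPM in control RNAi libraries. By 4 days the values were 294, 251, 236 and 267 CPM in egr-2 RNAi libraries and 258, 238, 232 and 260 CPM in control RNAi libraries. The groups overlapped at both later times. The log2 difference at 2 days, 0.39 (SE 0.095, adjusted p = 0.064), missed the threshold, and that at 4 days was 0.08 (SE 0.093, adjusted p = 0.85). The 2 day difference passed it in DESeq2 (adjusted p = 0.011), in a fit of the 2 day libraries alone (0.031), with the replicate number as a block (0.011), and without control RNAi replicate 1 (0.043) or egr-2 RNAi replicate 3 (0.0055), and its adjusted p ranged from 0.0055 to 0.30 over all alternatives. That difference also passed it without egr-2 RNAi 0 h replicate 1 (0.39, adjusted p = 0.029), a library outside this comparison that enters the shared fit. In the authors' deposited table, the 2 day difference of dd_Smed_v6_115_0_1 has a false discovery rate of 0.018.

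For dd_Smed_v6_132_0_1 the 0 h values were 646, 632, 554 and 741 CPM in egr-2 RNAi libraries and 329, 451, 336 and 366 CPM in control RNAi libraries. Every egr-2 RNAi library was above every control RNAi library, and the log2 difference of 0.86 (SE 0.12, adjusted p = 4.2e-05) was the largest positive one among the members at 0 h. Without egr-2 RNAi replicate 1 it was 0.84 (adjusted p = 5.0e-05). At 2 days dd_Smed_v6_132_0_1 had 104, 103, 79.4 and 116 CPM in egr-2 RNAi libraries and 95.8, 76.1, 78.4 and 69.1 CPM in control RNAi libraries. Its 4 day levels were 233, 232, 185 and 229 CPM in egr-2 RNAi libraries and 167, 212, 212 and 233 CPM in control RNAi libraries. The groups overlapped at 2 and at 4 days, with log2 differences of 0.35 (SE 0.12, adjusted p = 0.27) and 0.09 (SE 0.12, adjusted p = 0.87). From a higher start and to a like end, its net change from 0 h to 4 days was more negative in egr-2 RNAi fragments. That difference between the RNAi conditions, -0.77 on the log2 scale (SE 0.16, adjusted p = 0.030), was the only one of its kind called among the 10, against 0.283% of all contigs. The call was lost without control RNAi 0 h replicate 1, 3 or 4, control RNAi 4 day replicate 2, 3 or 4, egr-2 RNAi 0 h replicate 4, or egr-2 RNAi 4 day replicate 2, 3 or 4, with adjusted p of up to 0.095, and with scaling by total counts alone (-0.70, adjusted p = 0.056). The difference stayed between -0.89 and -0.69 over all alternatives, and its control values had entered the choice of members. For dd_Smed_v6_115_0_1 the same difference was -0.50 (SE 0.13, adjusted p = 0.097). It was called with the replicate number as a block (-0.50, adjusted p = 0.021), in DESeq2 (0.039) and without egr-2 RNAi 4 day replicate 1 (0.048). In this comparison 5 of the 10 members had an unadjusted p below 0.05. The others were dd_Smed_v6_8392_0_1 (-0.44, SE 0.13, adjusted p = 0.14), dd_Smed_v6_12066_0_1 (0.78, SE 0.25, adjusted p = 0.17) and dd_Smed_v6_3230_0_1 (0.23, SE 0.087, adjusted p = 0.25).

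In the opposite direction at 0 h, dd_Smed_v6_12066_0_1, of 1219 bases, had 32.4, 16.6, 19.7 and 16.1 CPM in egr-2 RNAi libraries and 47.6, 33.1, 52.8 and 30.1 CPM in control RNAi libraries. The groups overlapped only through egr-2 RNAi replicate 1, the library that stood apart. The log2 difference was -0.89 (SE 0.18, adjusted p = 0.0034), and -1.16 (adjusted p = 1.5e-05) without that library. In a fit of the 0 h libraries alone the call was lost (-0.92, adjusted p = 0.079). At 2 days dd_Smed_v6_12066_0_1 had 8.75, 7.61, 7.25 and 8.90 CPM in egr-2 RNAi libraries and 11.2, 9.29, 7.91 and 8.07 CPM in control RNAi libraries. The 4 day values were 19.5, 21.3, 18.9 and 22.9 CPM in egr-2 RNAi libraries and 26.2, 23.5, 17.2 and 21.9 CPM in control RNAi libraries. The groups overlapped at both times. From a lower start its fall was shallower in egr-2 RNAi fragments, to 38.3% of 0 h (46.5% without 0 h replicate 1) against 22.3% in control RNAi fragments. The difference in that fall was 0.74 (SE 0.28, adjusted p = 0.40), and 1.02 (SE 0.23, adjusted p = 0.046) without egr-2 RNAi 0 h replicate 1. Without that library the difference in the change from 0 h to 4 days was also called, at 1.06 (SE 0.20, adjusted p = 0.014), against 0.78 (SE 0.25, adjusted p = 0.17) with it. Because members needed a deep fall in control RNAi fragments, the choice leans toward positive differences in the fall. That of dd_Smed_v6_12066_0_1 runs with the lean. The control values in its change from 0 h to 4 days had also entered the choice of members.

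With all libraries, these were the 3 members called between RNAi conditions at 0 h, 2 of them higher with egr-2 RNAi and 1 lower, against 5.69% of all contigs. Since members needed a high control mean at 0 h and a low one at 2 days, the choice leans toward negative differences at 0 h and positive ones at 2 days. The rises of dd_Smed_v6_115_0_1 and dd_Smed_v6_132_0_1 at 0 h run against that lean, and the lower level of dd_Smed_v6_12066_0_1 runs with it. At 2 days none of the 10 was called, against 0.364% of all contigs, while 3 had an unadjusted p below 0.05 and DESeq2 called 1, dd_Smed_v6_115_0_1. At 4 days 1 member was called, dd_Smed_v6_3230_0_1, against 2.35% of all contigs. The rise that members needed from 2 to 4 days leans the choice toward negative differences at 4 days. The higher level of dd_Smed_v6_3230_0_1 in egr-2 RNAi fragments runs against that.

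A contig of 1129 bases, dd_Smed_v6_3230_0_1 varied little between replicates. At 0 h it had 99.4, 97.3, 85.6 and 91.1 CPM in egr-2 RNAi libraries and 88.6, 95.2, 93.1 and 105 CPM in control RNAi libraries. The 2 day values were 23.2, 20.8, 22.1 and 22.8 CPM in egr-2 RNAi libraries and 25.1, 20.7, 21.6 and 19.6 CPM in control RNAi libraries. Both RNAi conditions overlapped at these times, with log2 differences of 0.03 (SE 0.061, adjusted p = 0.83) at 0 h (-0.01 without egr-2 RNAi replicate 1) and 0.05 (SE 0.071, adjusted p = 0.90) at 2 days. At 4 days it had 57.4, 57.3, 59.8 and 59.1 CPM in egr-2 RNAi libraries and 48.5, 47.5, 48.1 and 50.3 CPM in control RNAi libraries. All 4 egr-2 RNAi libraries were above all 4 control RNAi libraries. The log2 difference was 0.26 (SE 0.062, adjusted p = 0.020), and the authors' deposited table gives 0.26 for dd_Smed_v6_3230_0_1 with a false discovery rate of 0.0037. The call was lost without control RNAi 4 day replicate 2 (adjusted p = 0.085) or 3 (0.051) and without egr-2 RNAi 4 day replicate 1 (0.052), 3 (0.054) or 4 (0.059), while the log2 difference stayed between 0.24 and 0.27 over all alternatives.

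**Figure D4:**
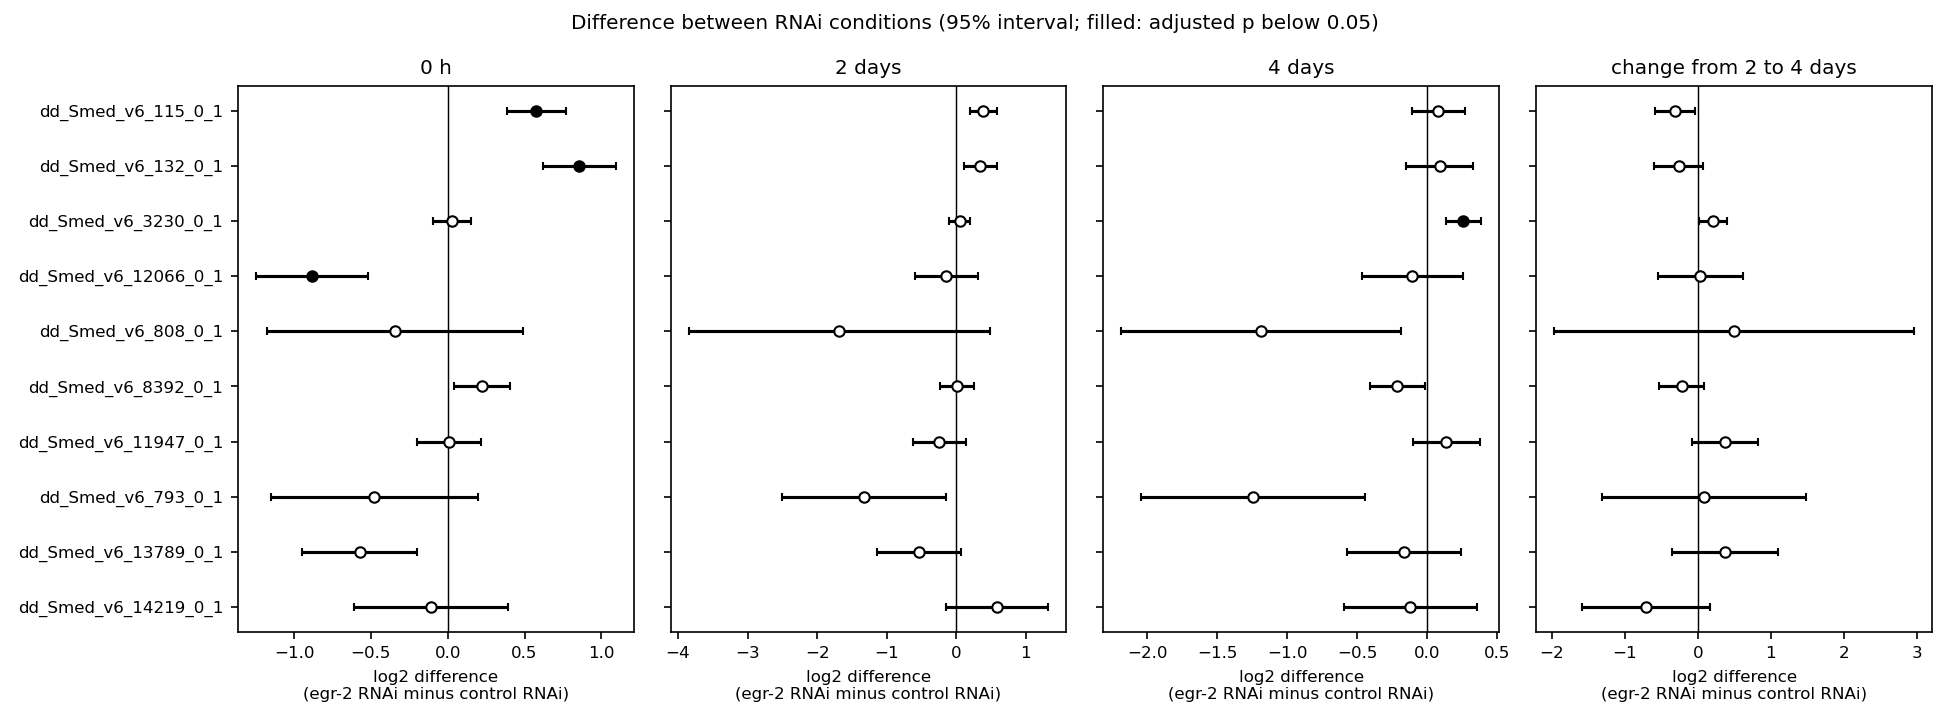
Log2 difference between egr-2 RNAi and control RNAi for each member at 0 h, 2 days and 4 days, and in the change from 2 to 4 days (right). Bars are 95% intervals, and filled circles have an adjusted p below 0.05. Filled circles are dd_Smed_v6_115_0_1, dd_Smed_v6_132_0_1 and dd_Smed_v6_12066_0_1 at 0 h and dd_Smed_v6_3230_0_1 at 4 days, and none in the change from 2 to 4 days.

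Whether the recovery itself differed was asked of the change from 2 to 4 days, egr-2 RNAi minus control RNAi. None of the 10 members was called by edgeR, against 0.0911% of all contigs, and DESeq2 also called none. The lowest adjusted p was 0.61, and 2 members had an unadjusted p below 0.05. These were dd_Smed_v6_115_0_1, with a difference of -0.31 (95% interval -0.58 to -0.04), and dd_Smed_v6_3230_0_1, with 0.21 (0.02 to 0.40). Because members needed a rise from 2 to 4 days in control RNAi fragments, the choice leans toward negative differences here. That of dd_Smed_v6_115_0_1 runs with the lean and that of dd_Smed_v6_3230_0_1 against it. The median difference of the 10 was 0.06, against -0.01 over all contigs, with 6 positive and 4 negative. Precision set how far this goes. The 95% interval reached 0.19 to each side for dd_Smed_v6_3230_0_1 and 2.46 for dd_Smed_v6_808_0_1, whose interval of -1.97 to 2.96 covers large differences either way. In the fall from 0 h to 2 days none of the 10 was called between the RNAi conditions with all libraries, against 0.182% of all contigs, with the lowest adjusted p at 0.30, that of dd_Smed_v6_132_0_1, and 2 members with an unadjusted p below 0.05. DESeq2 called none there either.

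The control values in such differences had been used in the choice, so members were also chosen from 9 control libraries at a time, with 1 replicate number left out. This gave 10, 9, 10 and 13 contigs without replicates 1, 2, 3 and 4, of which 9, 8, 9 and 9 were among the 10 members. Over each of these sets the median rise from 2 to 4 days was 2.59-fold, 2.63-fold, 2.53-fold and 2.63-fold in egr-2 RNAi fragments, and 2.35-fold, 2.70-fold, 2.14-fold and 2.86-fold in the left-out control libraries. The median level at 2 days was 19.2%, 23.6%, 18.8% and 19.2% of 0 h in egr-2 RNAi fragments and 28.3%, 22.0%, 22.6% and 17.9% in the left-out control libraries. For both of these measures the egr-2 RNAi medians lay inside the range of the left-out control libraries, though that range joins medians over different sets of contigs. Each left-out control value used 1 library per time, joined by replicate number, while the egr-2 RNAi values used means of 4. Ratios of single libraries spread more, so lying inside their range says little. The median level at 4 days was 42.7%, 58.0%, 36.0% and 36.2% of 0 h in egr-2 RNAi fragments and 58.7%, 56.1%, 49.9% and 43.4% in the left-out control libraries. Within a set, it was lower in egr-2 RNAi fragments than in the left-out control libraries in 3 of the 4 sets, and higher in the set without replicate 2. Without egr-2 RNAi 0 h replicate 1 the 4 day medians of egr-2 RNAi fragments were 43.3%, 58.8%, 35.9% and 36.2%. The sets share most of their contigs, and the difference was not tested.

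Applied to the egr-2 RNAi libraries in place of the control ones, the same definition gave 11 contigs, of which 6 were members. These 6 were 60% of the 10 members and 54.5% of the 11. Without egr-2 RNAi 0 h replicate 1, 5 members met the definition in egr-2 RNAi fragments. Of the 4 members that did not meet it in egr-2 RNAi fragments, dd_Smed_v6_12066_0_1 missed the fall, dd_Smed_v6_808_0_1 the 4 day level, dd_Smed_v6_8392_0_1 the rise from 2 to 4 days at 1.88-fold, and dd_Smed_v6_14219_0_1 both the abundance, at 4.63 CPM, and the fall. Of the 5 contigs that met it in egr-2 RNAi fragments alone, 4 missed only the rise from 2 to 4 days in control RNAi fragments. Among them was dd_Smed_v6_6337_0_1, with means of 153, 22.2 and 79.8 CPM at 0 h, 2 days and 4 days in egr-2 RNAi fragments and 142, 35.5 and 49.9 CPM in control RNAi fragments. Both lists were chosen from the values that they are compared on, so this overlap is a description.

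The short contigs dd_Smed_v6_808_0_1 and dd_Smed_v6_793_0_1, of 475 and 248 bases, varied most between replicates and did so together. At 0 h dd_Smed_v6_808_0_1 had 11.9, 13.7, 48.1 and 45.9 CPM in egr-2 RNAi libraries and 11.6, 56.1, 36.3 and 53.9 CPM in control RNAi libraries. At 2 days it had 0.907, 0.346, 0.708 and 0.568 CPM in egr-2 RNAi libraries and 1.76, 1.33, 3.75 and 1.17 CPM in control RNAi libraries. Replicates 1 and 2 of egr-2 RNAi and replicate 1 of control RNAi were well below their mates at 0 h, and the groups did not overlap at 2 days. By 4 days the values were 1.66, 6.33, 8.65 and 4.87 CPM in egr-2 RNAi libraries and 13.5, 13.2, 17.5 and 4.00 CPM in control RNAi libraries, with overlap through control RNAi replicate 4. The 2 day values rest on 7 to 14 counts per egr-2 RNAi library and 28 to 81 per control RNAi library. None of its differences between RNAi conditions was called with all libraries in the fit, at -0.35 (SE 0.41, adjusted p = 0.66) at 0 h, -1.68 (SE 1.06, adjusted p = 0.66) at 2 days and -1.18 (SE 0.49, adjusted p = 0.29) at 4 days. Without egr-2 RNAi 0 h replicate 1 that at 0 h was -0.10 (SE 0.38, adjusted p = 0.94), and a fit of the 2 day libraries alone called that at 2 days (-1.68, adjusted p = 0.032).

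At 0 h dd_Smed_v6_793_0_1 had 4.09, 3.0, 9.69 and 8.25 CPM in egr-2 RNAi libraries and 3.57, 13.5, 8.36 and 10.8 CPM in control RNAi libraries, with the same low libraries as dd_Smed_v6_808_0_1. Its 2 day levels were 0.907, 0.691, 0.545 and 0.568 CPM in egr-2 RNAi libraries and 1.47, 1.14, 2.87 and 1.30 CPM in control RNAi libraries, without overlap. Its 4 day levels were 0.913, 2.57, 1.64 and 1.72 CPM in egr-2 RNAi libraries and 4.30, 5.44, 4.44 and 1.83 CPM in control RNAi libraries. Again only control RNAi replicate 4 reached into the egr-2 RNAi range. The log2 differences were -0.48 (SE 0.33, adjusted p = 0.41) at 0 h, -1.33 (SE 0.58, adjusted p = 0.46) at 2 days and -1.25 (SE 0.39, adjusted p = 0.10) at 4 days, none of them called. In the authors' deposited table the 4 day difference of dd_Smed_v6_793_0_1 has a false discovery rate of 0.039, and a fit of the 4 day libraries alone also called it (-1.24, adjusted p = 0.016), as did leaving out control RNAi 4 day replicate 4 (-1.49, adjusted p = 0.037).

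Across the 24 libraries, deviations of log2 CPM from the group mean were compared for the 45 pairs of members as a description. The points share their libraries, and depth and composition act on all contigs of a library. The median Pearson's r was 0.04, with a range of -0.57 to 0.90. The highest r, 0.90, joined dd_Smed_v6_808_0_1 and dd_Smed_v6_793_0_1. Among 19760 other contigs tested, dd_Smed_v6_808_0_1 was the one most like dd_Smed_v6_793_0_1 (rank 1), and dd_Smed_v6_793_0_1 held rank 3 for dd_Smed_v6_808_0_1. Whether these contigs share sequence, and so reads, was not analysed here. The next pair was dd_Smed_v6_12066_0_1 with dd_Smed_v6_14219_0_1 (r = 0.77), and the third dd_Smed_v6_115_0_1 with dd_Smed_v6_132_0_1 (r = 0.62). Without egr-2 RNAi 0 h replicate 1 these were 0.90, 0.72 and 0.62. No other pair of members exceeded 0.5 with all libraries.

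**Figure D5:**
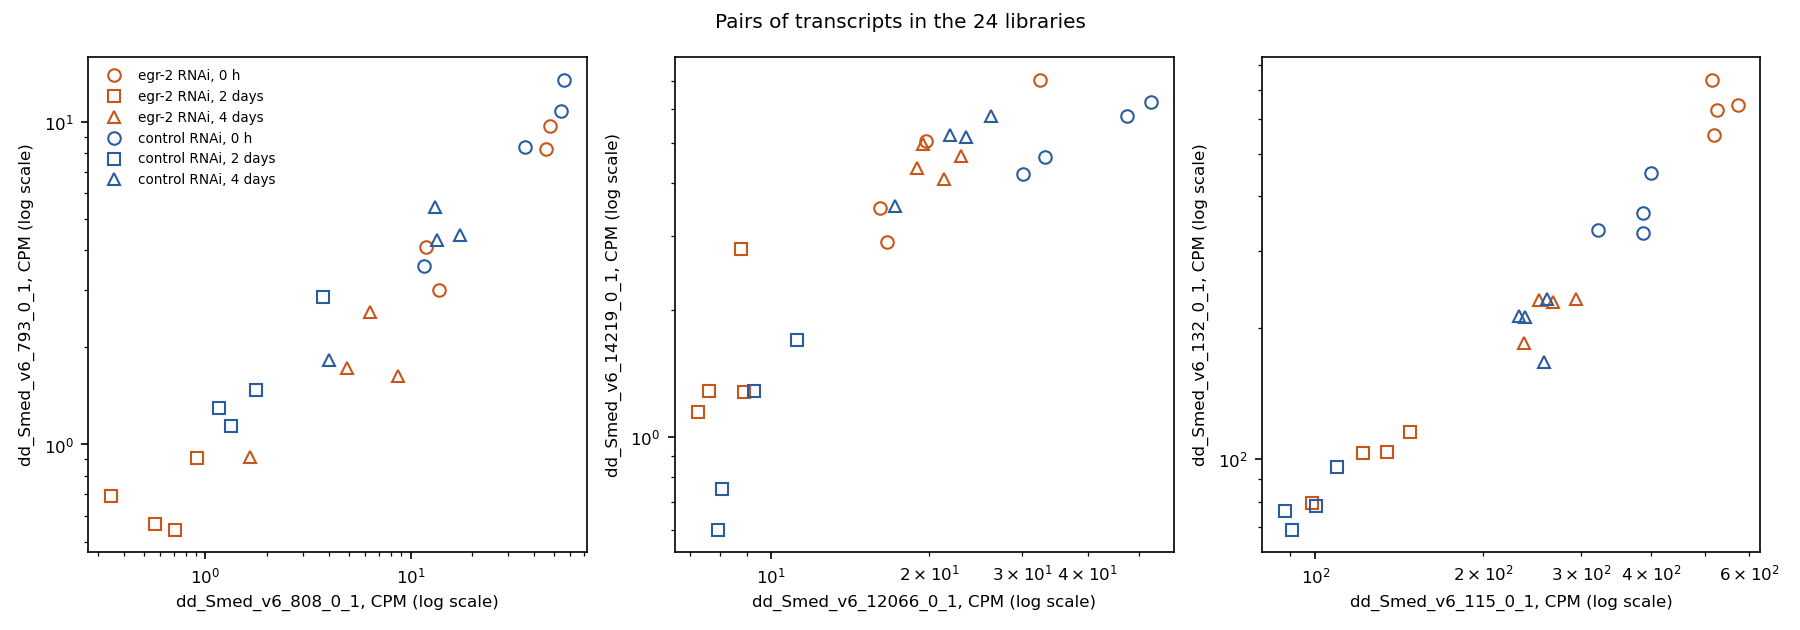
CPM on log axes in each of the 24 libraries for the 3 pairs of members with the highest correlation of deviations from the group mean, egr-2 RNAi in orange and control RNAi in blue. Circles are 0 h, squares 2 days and triangles 4 days. In the left panel 1 control RNAi and 2 egr-2 RNAi libraries at 0 h lie among the 4 day libraries.

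The partner of dd_Smed_v6_12066_0_1 in that comparison, dd_Smed_v6_14219_0_1, of 992 bases, had the largest share of its loss regained in control RNAi fragments. At 0 h it had 7.06, 2.91, 5.05 and 3.49 CPM in egr-2 RNAi libraries and 5.80, 4.62, 6.25 and 4.2 CPM in control RNAi libraries. The 2 day values were 2.79, 1.28, 1.14 and 1.28 CPM in egr-2 RNAi libraries and 1.70, 1.29, 0.601 and 0.752 CPM in control RNAi libraries. The 4 day values were 4.97, 4.11, 4.36 and 4.66 CPM in egr-2 RNAi libraries and 5.77, 5.15, 3.54 and 5.22 CPM in control RNAi libraries. The RNAi groups overlapped at each time, and no difference was called, with adjusted p of 0.83, 0.65 and 0.92 at 0 h, 2 days and 4 days. The log2 difference at 0 h was -0.11 (SE 0.24), and -0.38 (SE 0.23, adjusted p = 0.44) without egr-2 RNAi replicate 1. The difference in its change from 0 h to 4 days was -0.01 (SE 0.34, adjusted p = 0.99), and 0.26 (SE 0.30, adjusted p = 0.81) without that library. As for dd_Smed_v6_12066_0_1, egr-2 RNAi replicate 1 had the highest 0 h value of its group.

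None of the remaining 3 members was called between RNAi conditions at any time. The contig dd_Smed_v6_8392_0_1, of 1846 bases, had 38.3, 41.0, 39.8 and 34.9 CPM in egr-2 RNAi libraries and 31.6, 33.5, 36.9 and 35.4 CPM in control RNAi libraries at 0 h. At 2 days it had 9.27, 7.31, 6.16 and 6.96 CPM in egr-2 RNAi and 7.02, 8.57, 7.45 and 6.56 CPM in control RNAi libraries. At 4 days it had 13, 13.1, 16 and 13.8 CPM in egr-2 RNAi and 15.2, 18.8, 15.1 and 15.4 CPM in control RNAi libraries. The groups overlapped at each time, and the log2 differences were 0.22 (SE 0.089, adjusted p = 0.13), 0.01 (SE 0.12, adjusted p = 0.99) and -0.22 (SE 0.095, adjusted p = 0.35).

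At 0 h dd_Smed_v6_11947_0_1 had 19.0, 19.6, 19.7 and 22.4 CPM in egr-2 RNAi libraries and 23.6, 20.4, 21.9 and 18.4 CPM in control RNAi libraries. Its 2 day levels were 1.49, 1.73, 1.91 and 1.42 CPM in egr-2 RNAi and 1.53, 1.71, 2.17 and 2.3 CPM in control RNAi libraries. By 4 days the values were 4.70, 6.79, 6.22 and 5.77 CPM in egr-2 RNAi and 4.64, 6.14, 4.57 and 5.80 CPM in control RNAi libraries. The groups overlapped at each time, with log2 differences of 0.01 (SE 0.10; 0.03 without egr-2 RNAi 0 h replicate 1), -0.24 (SE 0.19) and 0.14 (SE 0.12) and adjusted p of at least 0.75. This contig regained 22.9% of its loss in egr-2 RNAi and 17.6% in control RNAi fragments. On TMM-scaled CPM it stood at 20.9% of 0 h at 4 days in control RNAi fragments and would not be a member.

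The longest member, dd_Smed_v6_13789_0_1, had 5.52, 5.77, 5.53 and 4.46 CPM in egr-2 RNAi libraries and 5.20, 6.64, 9.27 and 11.3 CPM in control RNAi libraries at 0 h. The 2 day values were 1.17, 1.09, 0.981 and 0.852 CPM in egr-2 RNAi and 1.13, 1.52, 2.04 and 1.21 CPM in control RNAi libraries. Its 4 day levels were 2.10, 3.11, 3.27 and 3.87 CPM in egr-2 RNAi and 3.25, 3.10, 4.02 and 3.36 CPM in control RNAi libraries. Values of the 2 RNAi conditions overlapped at each time. Its 0 h difference of -0.57 (SE 0.18, adjusted p = 0.061) was not called. In the authors' deposited table that of dd_Smed_v6_13789_0_1 has a false discovery rate of 0.048, and the adjusted p was 0.019 and 0.049 without control RNAi 0 h replicates 1 and 2, 0.041 in DESeq2 and 0.040 with scaling by total counts.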

How the data were processed

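The authors deposited raw read counts per transcript contig (IDs with the prefix dd_Smed_v6) for 24 libraries, and a table of their own comparisons whose columns are, per the file headers, the log2 fold change, a mean log2 CPM and FDR values (adjusted p-values). The submitters' processing notes name FastQC 0.11.5, Bowtie2 2.3.1, featureCounts and Subread 1.6.3, and the design text BBDuk and edgeR. No source used here gives trimming or strand settings.

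Members were found on column-sum CPM. Counts were tested with edgeR 4.0.16 (quasi-likelihood, limma 3.58.1, R 4.3.3) with TMM factors and filterByExpr (minimum count 10, total 15), in a model of 6 groups over all 24 libraries. That tested 19761 of 28069 contigs, called at an adjusted p below 0.05. Standard errors came from the F statistic, and 95% intervals from those. Printed CPM are unscaled by TMM, whose factors were 0.843 to 0.911 at 0 h and 1.03 to 1.10 later.

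The members, and the tests and alternatives, were chosen with earlier results of these data known. The rule for naming took contigs by level, size of change and calls, and as there were only 10 members all are named. Those outside it were chosen after their values were seen, as were the 3 pairs. Replicate pairs differed by a chi-square per degree of freedom of 2.53 to 25.9. No sequences were used.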

Additional observations from a re-analysis of the deposited data

Results flagged for a closer look

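Library values were examined for 1 far from its 3 mates in 60 sets of 4, 10 members in 6 groups. Chance flags about 1 set in 20, and 3 were found. They were dd_Smed_v6_132_0_1 in egr-2 RNAi 4 day replicate 3, low at 185 CPM, dd_Smed_v6_8392_0_1 in control RNAi 4 day replicate 2, high at 18.8 CPM, and dd_Smed_v6_14219_0_1 in egr-2 RNAi 2 day replicate 1, high at 2.79 CPM.

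The RNAi difference of dd_Smed_v6_132_0_1 was smaller at 4 days than at 0 h by the test of the difference itself (log2 -0.77, adjusted p = 0.030 in edgeR's quasi-likelihood test). The call was lost in 11 of 23 alternatives, with adjusted p of up to 0.095, and its control values took part in choosing the members.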

How the results depend on the processing

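Deviations of same-numbered libraries of different groups had a mean correlation of 0.025 over 60 pairs, with 5 above 0.1, against -0.0082 over 180 pairs of different number, with 1 above 0.1. Of 24 libraries, 13 correlated best with their own number. This is a hint from the data of a weak pairing. But the labels name no shared source and most pairs were under 0.1, so the main fit did not use the numbers as pairs. With the replicate number as a block, 1 member was called between RNAi conditions at 2 days (dd_Smed_v6_115_0_1, adjusted p = 0.011) and 2 in the change from 0 h to 4 days (dd_Smed_v6_132_0_1 and dd_Smed_v6_115_0_1).

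A rise of at least 3-fold from 2 to 4 days left 2 members, and leaving out single control libraries gave 9 to 11 (9 to 13 with a replicate number left out at all times, added after seeing the data). Members with the pattern in egr-2 RNAi fragments numbered 5 to 7 without single libraries. Between RNAi conditions at 0 h the count of 3 ranged from 2 to 4 over all alternatives. At 2 days the count of 0 became 1 with DESeq2 and 2 in the fit of the compared groups, and 0 to 1 without single libraries. At 4 days the count of 1 became 2 in the fit of the compared groups, and 0 to 2 without single libraries. In egr-2 RNAi fragments the count of 9 for the recovery became 10 with DESeq2 and in the fit of the compared groups, and the 8 lower at 4 days than at 0 h became 9 without 0 h replicate 2 or 4. For the difference in the fall the count of 0 became 1 without egr-2 RNAi 0 h replicate 1. In the change from 0 h to 4 days the count of 1 became 0 with total counts alone and 2 with DESeq2, and 0 to 2 without single libraries. The cause was not tested. Over all 90 pairs of a member and a comparison, alternatives gained 21 calls and lost 17. For 28 of these pairs, 420 of 444 alternative values kept direction and side of the threshold, and none changed direction. They were all members in the fall and recovery in egr-2 RNAi fragments and, between RNAi conditions, the called members or else the lowest p. Values crossed the threshold mostly between RNAi conditions. These were 11 of 23 for dd_Smed_v6_132_0_1 from 0 h to 4 days and 1 of 15 for dd_Smed_v6_12066_0_1 at 0 h. A further 5 of 15 each were for dd_Smed_v6_115_0_1 at 2 days and dd_Smed_v6_3230_0_1 at 4 days. In the recovery, 2 of 15 did so for dd_Smed_v6_793_0_1. Low counts limit dd_Smed_v6_808_0_1 and dd_Smed_v6_793_0_1, with 7 to 14 and 10 to 14 counts per egr-2 RNAi library at 2 days. Values without egr-2 RNAi 0 h replicate 1 for shares and medians were added after seeing the data.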
